A study of Mus musculus with 16 samples.

Results

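Oprd1, Zfp872, Scube3, Gcnt4, Pla2g4f and Gal3st2 are 6 of the 24421 genes counted in conventional type 1 dendritic cells (cDC1s) of the mouse spleen. They were chosen from the counts themselves, as genes nearly without reads in immature cDC1s and with a clear level in mature cDC1s. They also lead the ranking by fold change given below. Their difference between the stages is thus a description here and carries no test. All 6 were among the 11978 genes with enough counts to be tested, a filter that each passed through its mature libraries. The difference between the mouse lines among mature cells was not used to choose them and was tested.

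The 4 groups were mature and immature cDC1s of Xbp1flIre1fl mice and mature and immature cDC1s of Xbp1fl mice, with 4 bulk RNA-seq libraries each. Both lines were C57BL6 and at steady state, and both carried loxP-flanked alleles that had not been deleted, Xbp1 and Ire1 in the first line and Xbp1 in the second, so no wild-type line without such alleles was compared. From 5000 to 50000 cells were sorted by flow cytometry straight into lysis buffer, and the gates and the age of the mice are not given in the sources used here. Whether the 4 libraries of a group stem from different mice is not labelled, so a p-value here reflects spread among libraries that may be technical. The study's title concerns liver X receptor (LXR) signalling in dendritic cell maturation without infection.

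Conventional type 1 dendritic cells take up dying cells and present their antigens to CD8 T cells. At steady state some of them mature, raise the chemokine receptor Ccr7 and the actin-bundling protein Fscn1, and move to the T cell zone. The 6 genes encode proteins of unlike kinds. Oprd1 is the delta opioid receptor, a Gi-coupled receptor for enkephalins that lowers cyclic AMP. Scube3 is a secreted and surface-bound glycoprotein with EGF-like and CUB domains. Pla2g4f is a cytosolic phospholipase A2, an enzyme class that frees fatty acids from membrane phospholipids. Gcnt4 adds a branching N-acetylglucosamine to mucin-type O-glycans in the Golgi, and Gal3st2 adds sulfate to galactose of glycans. Zfp872 is a zinc finger protein whose targets are not given in the sources used here.

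The 6 genes lie on 6 chromosomes, each annotated as protein-coding in the GENCODE annotation of mm10. Oprd1 spans chr4:132110726-132144486 on the minus strand in 3 exonic blocks. Pla2g4f spans chr2:120299957-120314165 on the minus strand in 19 exonic blocks. Scube3 lies at chr17:28142141-28174854 and Zfp872 at chr9:22188090-22202123, both on the plus strand. Gcnt4 lies at chr13:96924689-96950906 and Gal3st2 at chr1:93861306-93876494, also on the plus strand.

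The promoters of 4 of these genes are shown because they span the range of CpG content that the 6 genes cover, and because 2 of them share a motif. Each run holds 250 bases before and 50 bases after the annotated start, taken from RefSeq on GRCm38.p6 (mm10) and written 5′ to 3′ on the gene's strand. Capitals mark CpG dinucleotides. The windows are chr4:132144437-132144736 (minus) for Oprd1, chr17:28142059-28142358 (plus) for Scube3, chr2:120314116-120314415 (minus) for Pla2g4f and chr1:93861094-93861393 (plus) for Gal3st2.
Oprd1: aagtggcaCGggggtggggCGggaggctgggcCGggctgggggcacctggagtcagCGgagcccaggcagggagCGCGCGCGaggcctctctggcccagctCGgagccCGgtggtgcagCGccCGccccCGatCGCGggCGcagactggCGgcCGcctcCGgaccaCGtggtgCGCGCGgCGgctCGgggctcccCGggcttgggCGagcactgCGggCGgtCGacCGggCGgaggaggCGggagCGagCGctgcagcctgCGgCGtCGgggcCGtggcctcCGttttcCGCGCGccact
Scube3: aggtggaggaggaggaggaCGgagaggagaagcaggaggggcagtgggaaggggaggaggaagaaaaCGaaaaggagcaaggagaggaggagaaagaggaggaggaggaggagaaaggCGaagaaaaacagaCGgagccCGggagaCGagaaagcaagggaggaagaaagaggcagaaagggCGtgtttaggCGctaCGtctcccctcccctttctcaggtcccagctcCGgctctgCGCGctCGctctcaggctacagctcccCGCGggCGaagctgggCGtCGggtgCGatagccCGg
Pla2g4f: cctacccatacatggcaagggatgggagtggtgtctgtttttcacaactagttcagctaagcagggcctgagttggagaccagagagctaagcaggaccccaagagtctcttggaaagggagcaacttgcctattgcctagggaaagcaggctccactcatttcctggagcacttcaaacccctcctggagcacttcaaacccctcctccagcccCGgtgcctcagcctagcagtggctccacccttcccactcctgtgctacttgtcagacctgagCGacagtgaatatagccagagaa
Gal3st2: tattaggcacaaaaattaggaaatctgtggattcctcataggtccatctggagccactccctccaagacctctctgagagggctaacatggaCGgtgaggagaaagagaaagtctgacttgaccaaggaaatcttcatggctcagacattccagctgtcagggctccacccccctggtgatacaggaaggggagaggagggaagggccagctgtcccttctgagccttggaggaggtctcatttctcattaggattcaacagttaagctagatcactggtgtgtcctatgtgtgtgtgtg

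The promoters had no common base composition. The Oprd1 window held 43 CpGs and an observed-to-expected CpG ratio of 0.932, which is above 89.7% of the 32851 RefSeq mouse promoters of this length. The Gal3st2 window held 1 CpG, a ratio of 0.0533 and above 6.39% of promoters, and the Pla2g4f window held 2 CpGs, a ratio of 0.0903. Scube3 had a ratio of 0.794 and Zfp872 of 0.694, against a median of 0.384 over all promoters. Gcnt4 has 2 annotated starts, with ratios of 0.275 and 0.718.

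Letters of 10 motifs were searched on both strands. The interferon-response core (GAAA, any 2 bases, GAAA) stood in the Scube3 window from 188 to 179 bases before the start and in the Gal3st2 window from 149 to 140 bases before it, and 3.44% of all promoters hold it. The PU.1 core GAGGAA also stood in these 2 windows, and in 28.3% of all promoters. A match to the NF-kB consensus stood in the Oprd1 window from 64 to 55 bases before the start (8.46% of promoters), next to an E-box CACGTG from 86 to 81 bases before it (7.15%) and 4 GC boxes GGGCGG (35.7%). The upstream Gcnt4 window held an AP-1 site TGANTCA (7.81%) and the downstream one held 2 GC boxes. No window held the TATA box TATAAA (13.6% of promoters), the LXR half-site AGGTCA (16.3%), the LXR element of 2 such half-sites spaced by 4 bases (0.0152%) or the cyclic AMP element TGACGTCA (1.79%), and the Zfp872 and Pla2g4f windows held none of the 10. A match describes letters only, and no match says only that the letters are not in this window.

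The libraries were of similar depth, with 13948232 to 16572576 counts in mature and 15083053 to 17000763 counts in immature libraries. A level is a count per 1e+06 counts of its library (CPM) after the trimmed-mean (TMM) scaling of edgeR, on which 3 counts correspond to 0.161 to 0.231 CPM. The stage genes separated the labels in each line: Ccr7 averaged 9402 ± 2859 CPM in mature libraries and 177 ± 72.3 CPM in immature ones, and Fscn1 2644 ± 628 CPM and 13.1 ± 5.47 CPM (SD, n = 8 each). Of 13 cDC1 markers, all were counted in both stages, 3 rose and 7 fell, and their summed level was 6794 to 10203 CPM in mature libraries and 10997 to 12333 CPM in immature libraries. Libraries of both stages held counts of genes listed as markers of other cell types, and which cells made them was not determined. All 10 B cell markers rose, with a summed level of 315 to 1072 CPM in mature libraries and 80.1 to 143 CPM in immature libraries, and of 12 macrophage markers 8 rose and 1 fell, with sums of 781 to 1345 CPM and 412 to 919 CPM. Every B cell marker was counted in both stages, the most abundant being Ms4a1 at 171 ± 59.3 CPM in mature libraries and 43.8 ± 7.85 CPM in immature libraries (SD, n = 8 each). Of the other lists, 6 of 10 tested cDC2 markers, 5 of 8 T cell markers, 3 of 4 plasma cell markers and 1 of 7 plasmacytoid dendritic cell markers rose, and 1 of the last fell. Of 7 NK cell markers 0 rose and 1 fell, of 5 tested neutrophil markers and of 5 tested stromal and endothelial markers 1 rose and 1 fell each, and of 2 tested erythroid markers 0 rose or fell. In the first 4 of these lists the most abundant genes in mature cells were Clec12a at 147 CPM, Cd4 at 37.1 CPM, Jchain at 222 CPM and Ly6d at 51.2 CPM, and that of the macrophage list was Vcam1 at 348 CPM. The immature levels of these 5 genes were 151, 17.9, 123, 10.5 and 80.5 CPM.

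Together the 6 genes had 18690 counts in the 8 mature libraries and 63 counts in the 8 immature libraries. None of the 48 values in mature libraries was 0, and 27 of the 48 values in immature libraries were 0. Each gene was higher in every mature library than in any immature one, a pattern that 18% of the tested genes shared, against 15% with the reverse, and that the choice of these genes fixed. Among all tested genes, 67.6% differed between the stages at an adjusted p under 0.05 by edgeR's quasi-likelihood test, 33.4% higher and 34.2% lower in mature cells. That split depends on scaling: 3995 of 8095 called genes were higher here, 3213 of 8450 with upper quartile scaling and 2716 of 8807 by library sizes only. These shares are background, and nothing is read from them about the 6 genes.

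**Figure D1:**
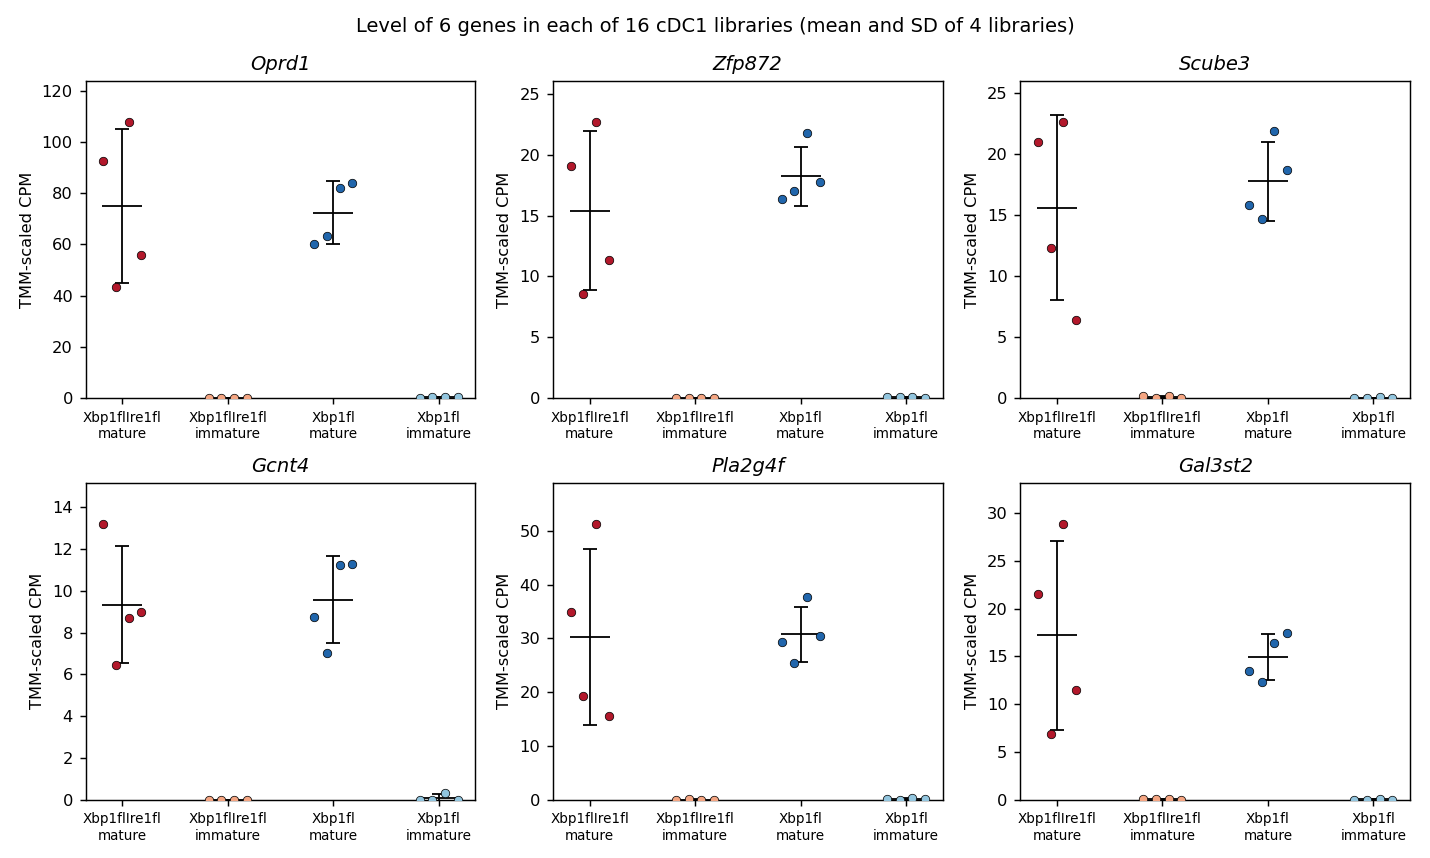
Level of each of the 6 genes (TMM-scaled CPM, linear axes from 0) in each library, with replicates 1 to 4 from left to right in each group, and horizontal bars with error bars for the mean and SD of 4 libraries. Immature libraries of both lines sit at or near 0, and mature Xbp1flIre1fl libraries are spread more widely than mature Xbp1fl libraries.

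Oprd1, the delta opioid receptor, had the highest level of the 6. Mature Xbp1flIre1fl libraries held 1375, 639, 1396 and 887 counts of Oprd1 and mature Xbp1fl libraries 786, 967, 1197 and 1209. Immature Xbp1flIre1fl libraries held 1, 0, 0 and 2 counts and immature Xbp1fl libraries 2, 5, 10 and 5. Every mature library was thus far above every immature one, and the immature counts were highest in replicate 3 of the Xbp1fl line. The level was 73.7 ± 21.4 CPM in mature libraries and 0.177 ± 0.193 CPM in immature libraries (SD, n = 8 each). The summed counts, relative to the TMM-scaled library sizes, were 410 times as high in mature cells, with a 95% exact binomial interval of 278 to 634 that covers counting error only.

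Pla2g4f, the phospholipase, came next. Its counts were 518, 283, 665 and 247 in mature Xbp1flIre1fl libraries and 383, 388, 550 and 440 in mature Xbp1fl libraries. In immature cells they were 0, 3, 0 and 0 in the Xbp1flIre1fl line and 3, 0, 5 and 3 in the Xbp1fl line. Reads of Pla2g4f were thus found in 4 of 8 immature libraries, in none above 5 counts. The mean level was 30.5 ± 11.2 CPM in mature libraries and 0.0981 ± 0.112 CPM in immature libraries (SD, n = 8 each), a ratio of summed counts of 301 (interval 179 to 551).

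Zfp872, the zinc finger gene, had the fewest immature counts. Mature Xbp1flIre1fl libraries held 283, 126, 294 and 180 counts and mature Xbp1fl libraries 213, 260, 317 and 256. All 4 immature Xbp1flIre1fl libraries were at 0, and immature Xbp1fl libraries held 1, 1, 2 and 0 counts. In the Xbp1flIre1fl line the mature level was thus at least 349-fold higher, against a floor of 3 counts over the 4 immature libraries. Over both lines the ratio was 585 (interval 228 to 2148), and it was 1023 (interval 283 to 8455) without immature Xbp1fl replicate 3. Mature libraries averaged 16.8 ± 4.82 CPM and immature ones 0.0286 ± 0.0432 CPM (SD, n = 8 each).

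Scube3, the secreted glycoprotein, had 312, 181, 293 and 102 counts in mature Xbp1flIre1fl libraries and 206, 224, 319 and 269 in mature Xbp1fl libraries. Immature libraries held 3, 0, 3 and 0 counts in the Xbp1flIre1fl line and 0, 0, 1 and 0 in the Xbp1fl line. Here the few immature counts lay mostly in the Xbp1flIre1fl line. The level was 16.7 ± 5.53 CPM in mature libraries and 0.0520 ± 0.0811 CPM in immature libraries (SD, n = 8 each). The ratio of summed counts was 330 (interval 160 to 822), and it was 511 without immature Xbp1flIre1fl replicate 1 and 506 without replicate 3.

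Gal3st2, the glycan sulfotransferase, had 320, 101, 374 and 182 counts in mature Xbp1flIre1fl libraries and 175, 188, 239 and 251 in mature Xbp1fl libraries. Immature libraries held 1, 2, 2 and 0 counts in the Xbp1flIre1fl line and 0, 0, 2 and 0 in the Xbp1fl line. No immature library exceeded 2 counts. The level was 16.04 ± 6.78 CPM in mature libraries and 0.0504 ± 0.0565 CPM in immature libraries (SD, n = 8 each), with a ratio of 317 (interval 154 to 789). Its counts are uncertain, since 71.2% of the 50-base windows of its transcripts also occur in other genes, 68.8% in the neighbouring copy Gal3st2b and 28.7% in Gal3st2c, and how reads with several matches were counted is not given in the sources used here. The entries under the older RefSeq names of these copies held 33 counts over the 8 mature and 0 over the 8 immature libraries for Gal3st2b (Gm9994), and 62 and 3 counts for Gal3st2c (Gm6086). RefSeq also lists Gal3st2 as a synonym of Gal3st2b, so which copy the Gal3st2 entry stands for is not certain. The position, promoter, neighbours and exon length given for Gal3st2 are those of the gene annotated under that symbol.

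Gcnt4, the O-glycan branching enzyme, had the lowest mature level. Mature Xbp1flIre1fl libraries held 196, 95, 113 and 143 counts and mature Xbp1fl libraries 114, 107, 164 and 163. All 4 immature Xbp1flIre1fl libraries were at 0, and immature Xbp1fl libraries held 0, 0, 6 and 0 counts. All 6 immature counts of Gcnt4 thus came from 1 library. The level was 9.46 ± 2.30 CPM in mature libraries and 0.0428 ± 0.121 CPM in immature libraries (SD, n = 8 each). The ratio was 221 (interval 101 to 604), and without that library it was at least 387 against the floor of 3 counts over the group. An antisense gene, Gm48597, covers 10.5% of the Gcnt4 exons, and the strandedness of the libraries is not given in the sources used here.

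Within each line the ratio of mature to immature summed counts rests on few immature counts. For Oprd1 it was 1700 in the Xbp1flIre1fl line (interval 581 to 8247, 3 immature counts) and 234 in the Xbp1fl line (interval 154 to 374, 22 immature counts). For Pla2g4f it was 678 in the Xbp1flIre1fl line (interval 232 to 3290) and 198 in the Xbp1fl line (interval 111 to 398). Scube3 had the opposite order, with 176 in the Xbp1flIre1fl line (interval 80.4 to 480) and 1261 in the Xbp1fl line (interval 226 to 49840, 1 immature count). For Gcnt4 it was at least 216 in the Xbp1flIre1fl line and 113 in the Xbp1fl line (interval 51.6 to 310), and for Gal3st2 it was 232 (interval 99.0 to 716) and 528 (interval 146 to 4368) in the same order. Over the 6 genes, immature libraries held 17 counts in the Xbp1flIre1fl line and 46 in the Xbp1fl line, and mature libraries held 9305 and 9385. Of these 46 counts, 26 came from Xbp1fl replicate 3, and replicates 1, 2 and 4 held 6, 6 and 8. For Oprd1 that library held 10 of the 22 counts. The difference between the lines in immature cells was not tested. On the deposited log2 table the ratio of mean levels was lower by over 1.5 times for each gene but Oprd1. Examples are a log2 ratio of 7.95 against 9.20 from the counts for Zfp872 and 6.86 against 7.79 for Gcnt4. In that table a count of 0 keeps a level above 0.

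Sharing of exact 50-base windows with other annotated genes was low for the rest. Near matches that differ in some bases were not searched. Oprd1 and Pla2g4f shared no 50-base window with another gene. Zfp872 shared 3.41% of its windows with the antisense gene 1810064F22Rik, which had 0.0264 CPM in mature libraries and 0 CPM in immature libraries. Scube3 shared 1.67% of its windows with an RNA gene that starts at the same promoter on the other strand.

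Per kilobase of exon, which allows levels to be compared between genes, the order in mature cells was Oprd1 at 18.3 ± 5.32, Pla2g4f at 9.53 ± 3.50, Zfp872 at 5.54 ± 1.59, Gal3st2 at 5.24 ± 2.21, Scube3 at 1.89 ± 0.625 and Gcnt4 at 1.86 ± 0.451 CPM per kilobase (SD, n = 8). Zfp872 and Gal3st2 differed by less than their spread, and so did Scube3 and Gcnt4. In immature cells the levels per kilobase ran from 0.0441 for Oprd1 down to 0.00588 for Scube3. Among all 24421 genes, ranked by CPM, Oprd1 took rank 2689 in mature cells and rank 12587 in immature cells, and Gcnt4 took ranks 8001 and 14144.

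**Figure D2:**
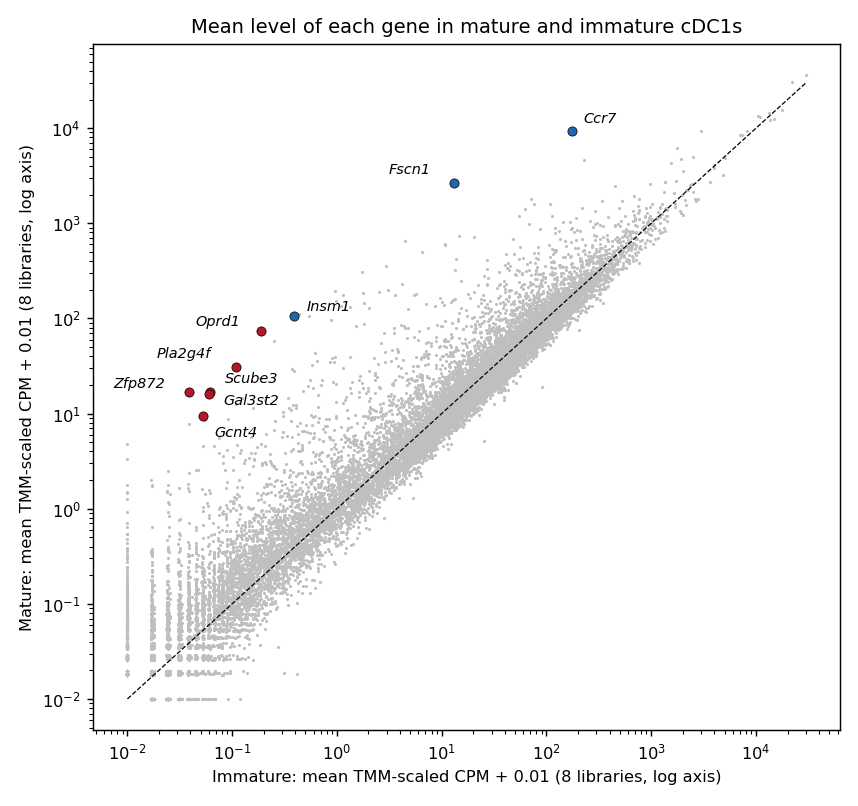
Mean level of each gene in the 8 mature libraries (y axis) against the 8 immature libraries (x axis), both in TMM-scaled CPM plus 0.01 on log axes, with the dashed line marking equal levels. The 6 genes (red) lie at 9.46 to 73.7 CPM in mature and under 0.2 CPM in immature libraries, with Ccr7, Fscn1 and Insm1 in blue for comparison.

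The genes just outside the choice by fitted log2 fold change were, in order, Insm1 at 8.10, Synpo2 at 8.06, Eno2 at 7.998, Foxh1 at 7.85, Tnfrsf4 at 7.68 and Plat at 7.67, next to 8.22 for Gal3st2, the lowest of the 6, and 9.55 for Zfp872, the highest. Insm1 is a zinc finger transcription factor of neuroendocrine cells, Synpo2 an actin-binding protein, Eno2 the neuronal enolase, Tnfrsf4 the co-stimulatory receptor OX40 and Plat tissue plasminogen activator. Insm1 had 106 ± 31.0 CPM in mature libraries and 0.379 ± 0.174 CPM in immature libraries, and Tnfrsf4 193 ± 59.2 and 0.957 ± 0.684 CPM (SD, n = 8 each).

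How near to zero these genes were is seen beside the stage genes. The immature level was 0.170% of the mature level for Zfp872, 0.241% for Oprd1, 0.312% for Scube3, 0.314% for Gal3st2, 0.322% for Pla2g4f and 0.452% for Gcnt4. It was 0.494% for Fscn1 and 1.88% for Ccr7. Of the 9177 genes with at least 5 CPM in mature cells, 12 had an immature level under 0.5% of the mature one, and the median gene stood at 101%. The choice of the 6 genes fixed their low percentages, so nothing is read from this comparison. Summed B cell markers kept 18.7% of their mature level in immature libraries, Ms4a1 25.7%, summed macrophage markers 55.2%, cDC2 markers 62.5%, T cell markers 58.7% and plasma cell markers 50.9%. Whether these markers came from other cells, and whether such cells add to the mature counts of the 6 genes, was not tested.

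Immature Xbp1fl replicate 3 stood apart. It held 26 of the 63 immature counts and was the only immature library with a count of each of the 6 genes, while the other immature libraries held 2 to 8 counts of 1 to 3 of them. The same library had the highest Ccr7, at 320 CPM or 3.41% of the mature mean, against 107 to 241 CPM in the others, and the highest Fscn1, at 24.3 CPM against 7.73 to 16.8 CPM. Its Ms4a1 level, 45.4 CPM, lay within the 34.1 to 59.8 CPM of the other immature libraries. Whether mature cells in that sample account for these counts was not tested, and in bulk samples fewer cells of a type and less RNA per cell cannot be told apart.

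**Figure D3:**
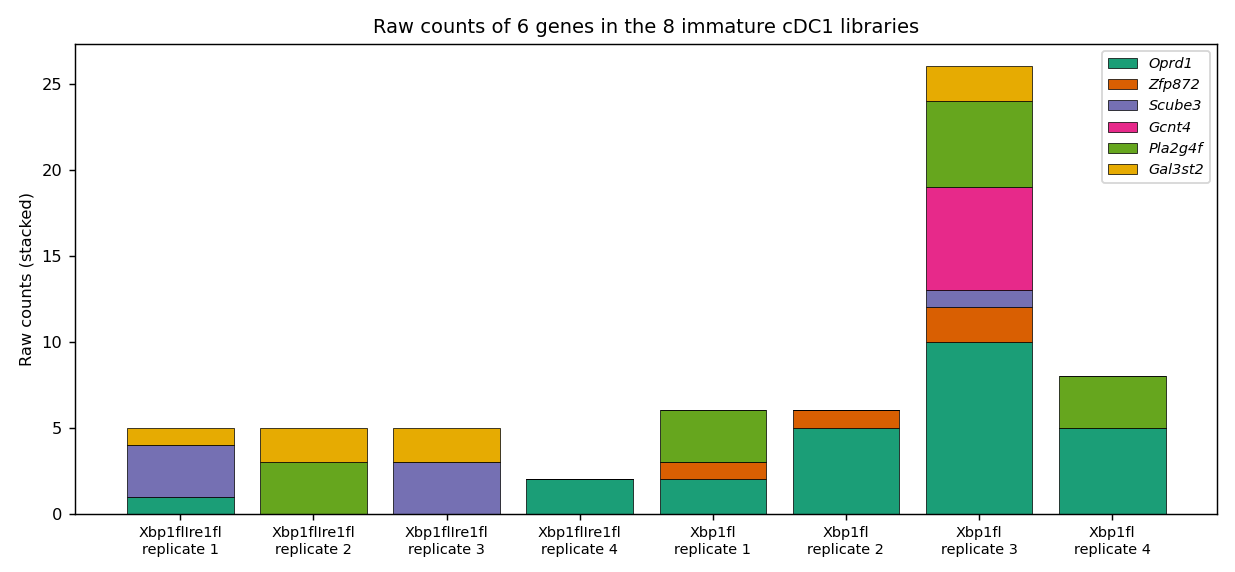
Raw counts of the 6 genes, stacked, in each of the 8 immature libraries (linear axis from 0). Xbp1fl replicate 3 holds 26 counts from all 6 genes, and the other libraries hold 2 to 8.

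Among mature libraries the genes tended to be low and high in the same libraries. Xbp1flIre1fl replicate 2 was among the 2 lowest of the 8 for all 6 genes, at 42.9% to 73.9% of their mature means. Xbp1flIre1fl replicate 4 was among the 2 lowest for 5 of the 6, at 38.5% to 95.2%. Xbp1flIre1fl replicate 3 was among the 2 highest for 5 of the 6, at 92.1% to 180% of the mean. How many of all genes follow this order was not determined, so it is not read as particular to the 6 genes. The stage genes were low and high in the same libraries. Ccr7 stood at 69.9% of its mature mean in Xbp1flIre1fl replicate 2, 53.0% in replicate 4 and 143% in replicate 3, and Fscn1 at 62.0%, 77.6% and 128%. Of the B cell genes, Ms4a1 was lowest in Xbp1flIre1fl replicate 2, at 65.8%, and highest in replicate 3, at 172%. In replicate 4, where 5 of the 6 genes were low, Ms4a1 stood at 84.2% and Cd79a at 126%, and Cd79a was lowest in Xbp1fl replicate 4, at 41.5%. The part of B cell RNA in this spread was not tested.

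Taken relative to the stage genes, the 6 genes varied in unlike ways over the 8 mature libraries. The coefficient of variation of Pla2g4f was 36.7% for its CPM, 8.92% for its ratio to Ccr7 and 18.8% for its ratio to Fscn1. That of Scube3 was 33.1% for the CPM, 11.4% for the ratio to Ccr7 and 21.2% for the ratio to Fscn1. For Oprd1 it was 29.0% for the CPM, 18.1% for the ratio to Ccr7 and 7.37% for the ratio to Fscn1. For Gal3st2, the most variable, it was 42.3% for the CPM, 23.9% for the ratio to Ccr7 and 21.6% for the ratio to Fscn1. For Zfp872 it was 28.7% for the CPM, 16.6% for the ratio to Ccr7 and 12.2% for the ratio to Fscn1. For Gcnt4 the ratio to Ccr7 varied more than the CPM, at 31.5% and 24.2%, and the ratio to Fscn1 varied less, at 15.96%.

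**Figure D4:**
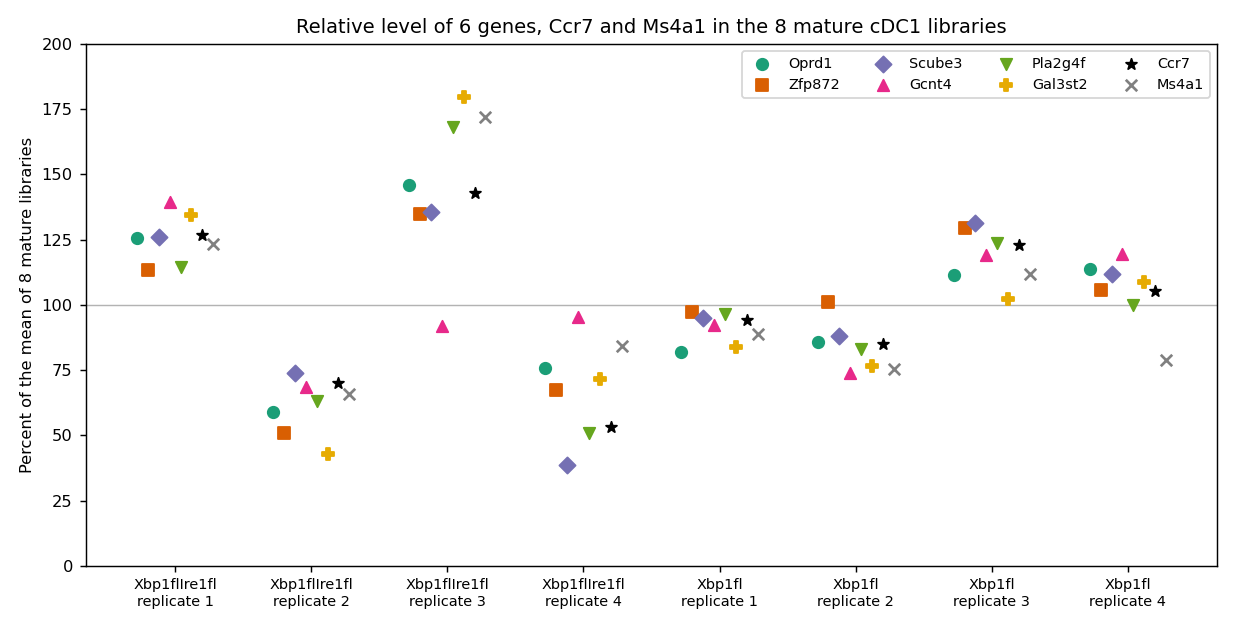
Level of the 6 genes, Ccr7 and the B cell gene Ms4a1 in each mature library, as a percentage of the mean over the 8 mature libraries (linear axis from 0). Xbp1flIre1fl replicates 2 and 4 are low for nearly all genes and replicate 3 is high for all but Gcnt4, which stands at 92.1% there.

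The 2 lines were compared among mature cells. Both carry floxed Xbp1, so the comparison asks only whether the 6 genes differ between these lines. Dependence on floxed alleles as such could not be tested without a line lacking them. None of the 6 differed at an adjusted p under 0.05 in the edgeR quasi-likelihood fit over all genes, a threshold that 17 of the 11978 genes (0.142%) passed. Without mature Xbp1flIre1fl replicate 2 it was 30 genes, again with none of the 6. At an unadjusted p under 0.05 none of the 6 passed either, against 6.29% of all genes. DESeq2, limma-voom and limma on the deposited log2 table also called none of them.

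Oprd1 averaged 74.9 ± 30.2 CPM in mature Xbp1flIre1fl and 72.4 ± 12.3 CPM in mature Xbp1fl libraries (SD, n = 4 each), a log2 fold change of 0.05 ± 0.23 (SE) with an adjusted p of 0.996 by edgeR. Pla2g4f averaged 30.2 ± 16.3 and 30.8 ± 5.15 CPM in the same order, and its log2 fold change was -0.03 with a 95% interval of -0.70 to 0.64. Zfp872 averaged 15.4 ± 6.56 CPM in Xbp1flIre1fl and 18.2 ± 2.43 CPM in Xbp1fl libraries, a log2 fold change of -0.25 with an interval of -0.79 to 0.30. Scube3 averaged 15.6 ± 7.59 and 17.8 ± 3.23 CPM, with -0.19 and an interval of -0.87 to 0.48. Gcnt4 averaged 9.35 ± 2.81 and 9.58 ± 2.09 CPM, with -0.03 and an interval of -0.76 to 0.69. Gal3st2 averaged 17.2 ± 9.90 and 14.9 ± 2.41 CPM, with 0.20 and an interval of -0.51 to 0.92.

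The intervals are wide, and that of Gal3st2 spans a ratio of 0.701 to 1.89, so differences within that range are not excluded. The size of difference that the adjusted threshold would detect was not determined. The 2 groups overlapped for each of the 6 genes. An exact two-sided permutation test of 4 against 4 libraries, whose smallest possible p is 0.0286, gave p from 0.457 for Zfp872 to 0.943 for Pla2g4f, all 0.943 after adjustment over the 6. The coefficient of variation was larger in mature Xbp1flIre1fl than in mature Xbp1fl libraries for each gene, for example 57.6% and 16.2% for Gal3st2 and 48.7% and 18.2% for Scube3, and this difference in spread was not tested.

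The patterns most like these genes were measured as the root mean square difference of centred log2(CPM + 0.5) values over the 16 libraries. Nearest to Oprd1 were Dscaml1, a neuronal adhesion molecule (0.26), and Ankrd33b (0.29). Nearest to Pla2g4f were Adora2a, an adenosine receptor (0.26), and Papss2, which makes the sulfate donor PAPS (0.31). Nearest to Zfp872 were Efna2, the ligand ephrin-A2 (0.20), and the interleukin-21 receptor Il21r (0.24). Il21r was also nearest to Scube3 (0.27), before the intermediate filament gene Prph (0.27), and to Gal3st2 (0.24), before Zfp872 (0.24). Nearest to Gcnt4 were the potassium channel Kcnn1 (0.25) and Tmem123 (0.26). The median gene differed by 2.13 to 3.416 from these 6. The 16 libraries span both stages, so the stage difference that chose the 6 genes enters each of these distances. Nothing is read from the gap to the median gene. The measure adds 0.5 CPM, so a gene near zero and one at a few CPM in immature cells can look alike: Il21r had 422 ± 106 CPM in mature libraries and 13.6 ± 2.46 CPM in immature libraries (SD, n = 8 each).

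The other genes of the same families and pathways were taken from lists, with 159 genes in the table and 111 tested beside the 6. Of these, 46 rose, 31 fell and 34 did not pass at an adjusted p under 0.05 by edgeR's quasi-likelihood test, with a median log2 fold change of 0.13 against -0.01 over all genes. The split depends on scaling, with 36 higher and 48 lower by library sizes only and 37 and 43 by upper quartile scaling, which moved the median of all genes to -0.23 and -0.13. The shares called are read beside the 33.4% higher and 34.2% lower among all tested genes.

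No other opioid receptor had more than traces. Oprm1 had 0.0315 ± 0.0183 CPM per kilobase in mature libraries and 0.0804 ± 0.0490 in immature libraries, Oprl1 0.0140 ± 0.0160 and 0.00378 ± 0.0107 (SD, n = 8 each), and Oprk1 had no count in any library. None of these 3 was tested, for lack of counts. Of 10 genes for opioid peptides, their processing and their breakdown, 3 had enough counts to test. Anpep, an aminopeptidase that degrades enkephalins, fell by 0.34 on the log2 scale (adjusted p = 0.00278, edgeR), Cpe, a peptide-processing carboxypeptidase, rose by 0.84 (adjusted p = 0.0485), and Dpp3 did not pass. The call for Cpe was lost in 10 of 16 fits without 1 library and under 2 of 3 other scalings.

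Gi-coupled receptors signal through shared partners. Of 13 tested G proteins, arrestins, receptor kinases and adenylyl cyclases, 5 rose and 4 fell, or 5 rose and 7 fell by library sizes only. Adcy6, an adenylyl cyclase that Gi proteins inhibit, rose by 7.26 ± 0.31 (SE) on the log2 scale, with 175 CPM in mature libraries and 1.14 CPM in immature libraries (adjusted p = 1.01e-10, edgeR). Of the arrestins that uncouple such receptors, Arrb2 rose by 0.88 ± 0.08 (adjusted p = 5.55e-08) and Arrb1 fell by 0.67 (adjusted p = 5.76e-06). The receptor kinase Grk5 rose by 1.37 ± 0.14 (adjusted p = 1.11e-07). Gnai2, the most abundant Gi protein here, had 1155 CPM in mature libraries and 1128 CPM in immature libraries and did not pass (adjusted p = 0.442).

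Scube3 was the only SCUBE gene with more than traces. Scube2 had 0.134 ± 0.0752 CPM per kilobase in mature libraries and 0.0154 ± 0.0226 in immature libraries, and Scube1 0.0122 ± 0.0104 and 0.00644 ± 0.00650 (SD, n = 8 each), and neither was tested. SCUBE proteins are known to act on Hedgehog release and on receptors of the transforming growth factor and bone morphogenetic protein family. Of 5 tested Hedgehog genes, 2 rose and 1 fell, or 1 rose and 2 fell under upper quartile scaling and by library sizes only. The co-receptor Cdon rose by 1.02 ± 0.09 (SE) on the log2 scale (adjusted p = 2.19e-08, edgeR), the release factor Disp1 fell by 0.43 (adjusted p = 0.00849), and Sufu, an inhibitor of the pathway, was called higher at 0.19 but was at -0.04 by library sizes only.

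Of 17 tested genes of the TGF-beta and BMP pathway, 8 rose and 3 fell, or 6 rose and 5 fell by library sizes only. The type I receptor Tgfbr1 had 67.2 CPM in mature libraries and 37.1 CPM in immature libraries and rose by 0.85 ± 0.06 (SE) on the log2 scale (adjusted p = 1.30e-09, edgeR). The signal-transducing Smad3 rose by 1.12 ± 0.09 (adjusted p = 3.15e-09) and the common partner Smad4 by 0.78 ± 0.06 (adjusted p = 6.23e-09).

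In the GCNT family, Gcnt4 was not the main enzyme by level. Gcnt2 had 24.0 ± 8.05 CPM per kilobase in mature libraries and 37.8 ± 9.11 in immature libraries (SD, n = 8 each), and fell by 0.66 on the log2 scale (adjusted p = 0.0117, edgeR). Gcnt1, the main core-branching enzyme of leukocytes, had 3.67 ± 0.746 and 3.47 ± 0.559 CPM per kilobase and did not pass, nor did Gcnt7, and Gcnt3 had almost no counts. Of 25 tested genes that build or cap mucin-type O-glycans, 14 rose and 7 fell, or 10 rose and 9 fell by library sizes only. The fucosyltransferase Fut4 rose by 1.42 ± 0.09 (SE) on the log2 scale (adjusted p = 1.87e-10), the chain-starting enzyme Galnt7 by 1.29 ± 0.08 (adjusted p = 1.91e-10) and the sialyltransferase St3gal2 by 1.79 ± 0.12 (adjusted p = 1.89e-09).

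Gal3st2, with the doubt on its counts given above, had the highest level per kilobase of the galactose sulfotransferases in mature cells. Gal3st1 had 0.272 ± 0.162 CPM per kilobase in mature libraries and 0.601 ± 0.179 in immature libraries (SD, n = 8 each) and fell by 1.10 on the log2 scale (adjusted p = 0.00636, edgeR). Gal3st3 had 0.206 and 0.231 CPM per kilobase and did not pass, and Gal3st4 was not tested. Sulfotransferases need the donor PAPS, and of 16 tested genes for sulfate supply and other glycan sulfotransferases 9 rose and 3 fell, or 8 rose and 5 fell by library sizes only. Papss2, a PAPS synthase, had 197 CPM in mature libraries and 3.08 CPM in immature libraries and rose by 6.004 ± 0.26 (SE) on the log2 scale (adjusted p = 9.77e-11). The sulfotransferase Chst7 rose by 4.74 ± 0.25 (adjusted p = 1.87e-10), at 30.4 CPM in mature libraries and 1.13 CPM in immature libraries. The sulfate transporter Slc26a2 rose by 2.23 ± 0.13 (adjusted p = 8.74e-10).

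**Figure D5:**
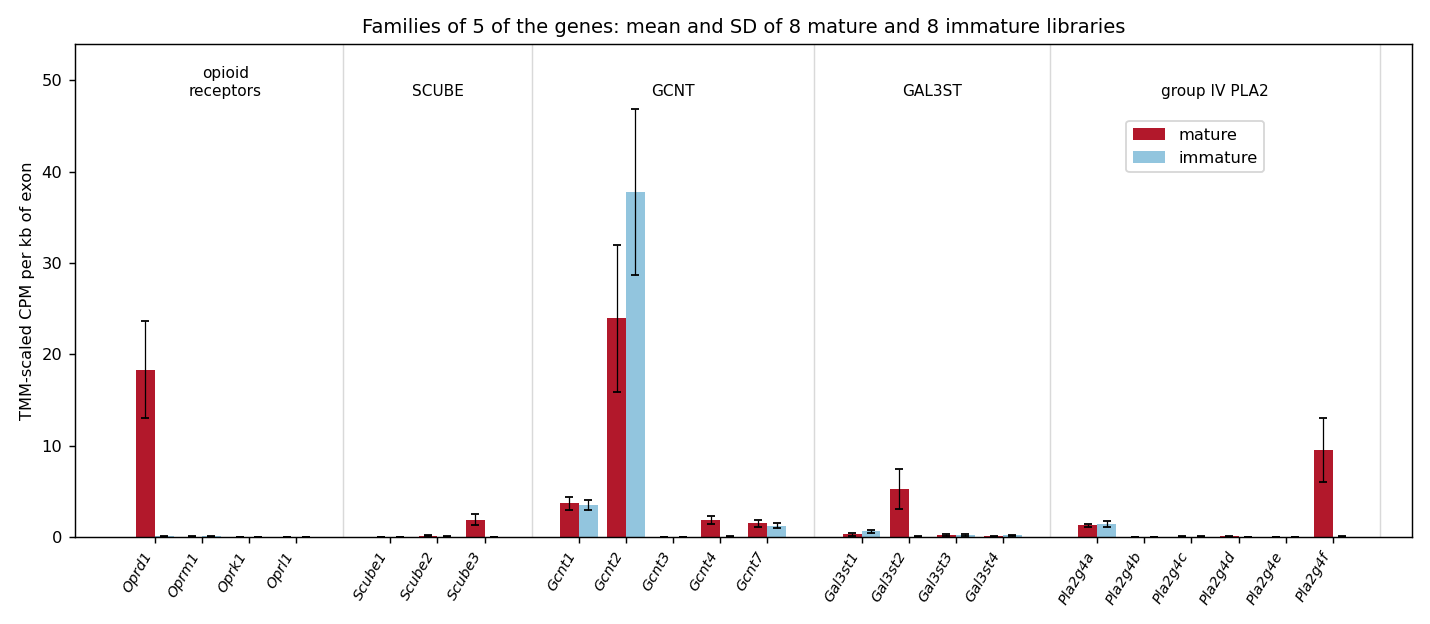
Levels per kilobase of exon (TMM-scaled CPM per kb, linear axis from 0) of the families of 5 of the 6 genes, as the mean and SD of 8 mature (red) and 8 immature (blue) libraries. Oprd1, Scube3, Gal3st2 and Pla2g4f have the highest mature level in their families, and Gcnt2 and Gcnt1 stand above Gcnt4.

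Pla2g4f had the highest mature level of the group IV phospholipases. Pla2g4a, the widely expressed member that frees arachidonic acid, had 1.26 ± 0.176 CPM per kilobase in mature libraries and 1.40 ± 0.310 in immature libraries (SD, n = 8 each), and its difference did not pass (log2 fold change -0.15, adjusted p = 0.320, edgeR). Pla2g4b and Pla2g4e had no counts, and Pla2g4c and Pla2g4d had too few to test. Of 18 tested genes for eicosanoids and prostaglandin E receptors, 5 rose and 5 fell, or 5 rose and 9 fell by library sizes only. Ptgs2, the inducible cyclooxygenase, had 189 CPM in mature libraries and 40.4 CPM in immature libraries and rose by 2.25 ± 0.15 (SE) on the log2 scale (adjusted p = 2.75e-09). Ltc4s, the leukotriene C synthase, rose by 3.18 ± 0.25 (adjusted p = 3.69e-09) at 2.97 CPM in mature libraries and 0.320 CPM in immature libraries, and Lta4h, a leukotriene A hydrolase, fell by 0.55 (adjusted p = 3.54e-09).

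For Zfp872 the comparison was with the corepressor complex that many KRAB zinc finger proteins of the mouse recruit. Whether Zfp872 binds it is not given in the sources used here. The list held genes of that complex and associated factors. Of its 8 tested genes, 2 rose and 5 fell, or 1 rose and 6 fell under upper quartile scaling and by library sizes only. Atf7ip, a partner of the histone methyltransferase Setdb1, rose by 1.23 ± 0.10 (SE) on the log2 scale (adjusted p = 1.73e-08, edgeR), the scaffold Trim28 fell by 0.53 (adjusted p = 7.71e-07) and Morc3 fell by 0.48 (adjusted p = 5.96e-06).

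Genes that start within 200 kb of the 6 genes were counted as well. Of 31 tested neighbours, 9 rose, 9 fell and 13 did not pass, against 33.4% higher and 34.2% lower among all tested genes. Nothing about the 6 genes is read from these counts. The split depends on scaling, with 7 higher and 12 lower under upper quartile scaling and 5 higher and 14 lower by library sizes only. Around Oprd1 3 of 5 were called higher, with Ythdf2 at a log2 fold change of 0.33, but 0 of the 5 by library sizes only. Around Zfp872 4 of 10 rose and 2 fell, or 3 rose and 3 fell by library sizes only, led by the zinc finger gene Zfp809, which rose by 1.149 (34.3 CPM in mature libraries and 15.5 CPM in immature libraries, adjusted p = 2.86e-08, edgeR). Around Pla2g4f 1 of 4 rose, the vesicle-tethering gene Vps39 by 1.63 (adjusted p = 1.09e-08), and 2 fell. Around Scube3 1 of 6 rose and 2 fell, with Def6 at -0.50. The riser was Tcp11, by 3.38 (adjusted p = 1.54e-05, edgeR), at 0.868 CPM in mature libraries and 0.0781 CPM in immature libraries. Around Gal3st2 3 of 6 fell, with Dtymk at -0.76. No neighbour of Gcnt4 had enough counts.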

How the data were processed

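Raw counts per gene symbol for 16 libraries were used as the authors deposited them, and a second table of log2 values that the authors deposited for 11843 genes served as an alternative. TopHat2 2.1.0, Trimmomatic 0.35, limma 3.42.2, SAMtools 0.1.19, FastQC 0.11.4 and the build mm10 are named, without their settings, per the submitters' processing notes; the read counter, its annotation and the strand setting are not given in the sources used here.

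Counts were fitted with edgeR 4.0.16 in R 4.3.3 (filterByExpr, TMM, robust quasi-likelihood fit, 4 group means over all 16 libraries, 12 residual degrees of freedom), with Benjamini-Hochberg adjustment over 11978 genes and a threshold of 0.05. The code was tested on simulated data. The members and the gene lists were chosen with earlier results of these data known. Named genes are the 6 members, the 6 genes next by fold change, the 2 nearest patterns per member, all family members, the 3 list genes and the 1 neighbour of smallest adjusted p, and others chosen after their values were seen (Gnai2, Arrb1, Cd79a, Tcp11, Gm9994, Gm6086). Intervals and floors of 3 counts cover counting error only.

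Replicate numbers were checked for pairing by the correlation of deviations from the group means over 9187 genes. Mature and immature libraries of 1 line with the same number deviated together, with correlations of 0.225 to 0.541 in Xbp1flIre1fl and 0.275 to 0.463 in Xbp1fl, and mature libraries of the 2 lines did so for some numbers only (-0.14 to 0.277). No pair of libraries in a group agreed within sampling noise (chi-square of their counts, 5.23 to 57.1 per degree of freedom).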

Additional observations from a re-analysis of the deposited data

Results flagged for a closer look

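Among 24 sets of 4 libraries (6 genes in 4 groups), 4 had 1 library apart from the other 3, by a gap that is a larger part of the set's range than Dixon's 95% critical value. All 4 are immature sets in which that library alone had counts and the others had 0, so the gap equals the whole range whatever the size of the count. The rate of about 1 in 20 that chance gives for this criterion does not apply to such sets, sets with 0 in all 4 libraries could not meet it, and nothing is supported by it here. Immature Xbp1fl replicate 3 was that library for Gcnt4 with 0.343 CPM (6 counts), for Gal3st2 with 0.114 CPM (2 counts) and for Scube3 with 0.0571 CPM (1 count). Immature Xbp1flIre1fl replicate 2 was that library for Pla2g4f with 0.168 CPM (3 counts). With 1 to 6 counts, these values are near the limit of what the depth can show.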

How the results depend on the processing

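None of the 6 genes was called between the lines in mature cells under any of the alternatives or with any 1 library left out. Their small log2 fold changes between the lines changed sign in several: for Oprd1 to -0.039 with limma-voom, -0.068 on the deposited log2 table and -0.022 with the replicate block, and for Gal3st2 to -0.013 with limma-voom. Without 1 library at a time they ranged from -0.18 to 0.23 for Oprd1, -0.49 to -0.05 for Zfp872, -0.42 to 0.068 for Scube3, -0.25 to 0.11 for Gcnt4, -0.41 to 0.19 for Pla2g4f and -0.16 to 0.46 for Gal3st2. Without both mature Xbp1flIre1fl libraries of lowest Ccr7, a choice made after seeing the data, all 6 were positive: 0.47 for Oprd1 (adjusted p = 0.165 by edgeR), 0.19 for Zfp872, 0.30 for Scube3, 0.20 for Gcnt4 and 0.48 for Pla2g4f (adjusted p from 0.343 to 0.872), and 0.76 for Gal3st2, whose adjusted p of 0.0950 was the lowest over all alternatives. The number of all genes called between the lines was 36 with DESeq2, 11 with the 8 mature libraries alone, 15 to 30 without 1 library and 152 without those 2 libraries; the cause was not tested.

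Of the related genes, 48 were lower by library sizes only, and 22 were higher and 2 lower when a call also needed over 2-fold, a rule added after seeing the data. The replicate block gave 21 calls between the lines and 8242 between the stages, and blocks within each line, added after seeing the data, gave 8347 between the stages with 49 related genes higher and 33 lower. With the replicate block, none of the 6 genes was called between the lines; blocks within each line give no comparison of the lines. On the deposited log2 table the log2 ratio of mean levels, mature over immature, was 8.23 for Oprd1, 7.95 for Zfp872, 7.47 for Scube3, 6.86 for Gcnt4, 7.67 for Pla2g4f and 7.43 for Gal3st2. From the counts it was 8.70, 9.20, 8.33, 7.79, 8.28 and 8.31 in the same order. For Zfp872, the immature Xbp1flIre1fl libraries with 0 counts stood at -4.81, -4.95, -4.91 and -4.96 in the deposited log2 table. A count of 0 thus keeps a level above 0 there, and its part in the lower ratios was not tested. Depth limits the immature levels, which rest on 4 to 25 counts per gene.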

Other observations

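The same near-zero pattern was shared by more genes than the 6. Of the 9177 genes with at least 5 CPM in mature libraries, 18 had under 0.2 CPM in immature libraries, and no gene had the reverse pattern. The 12 outside the 6, named here after their values were seen, include Cdkn2b, an inhibitor of cell cycle kinases, with 23.6 ± 7.04 CPM in mature libraries and 0.175 ± 0.174 CPM in immature libraries (SD, n = 8 each). Serpinc1, the antithrombin gene, had 14.4 ± 4.64 and 0.113 ± 0.182 CPM, and Arg2, the mitochondrial arginase, 12.5 ± 4.10 and 0.0986 ± 0.0768 CPM in the same order. Foxh1, a partner of SMAD proteins, had 7.77 ± 2.72 CPM in mature libraries and 0.0290 ± 0.0311 CPM in immature libraries. Cd70, the ligand of the co-stimulatory receptor CD27, had 5.55 ± 1.86 CPM in mature libraries and 0.0646 ± 0.0835 CPM in immature libraries.

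By fitted log2 fold change 10 genes were past 8 and 0 were past it in the other direction. Spata31d1b and Psca stood among the first 4 of that order, with 4.76 ± 2.04 and 3.34 ± 1.35 CPM in mature libraries and no count in the 8 immature libraries (SD, n = 8). Their levels in mature cells lie under the 5 CPM that the choice of the 6 genes required.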
